A study of Mus musculus with 17 samples.

Results

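The clustered protocadherins are cell adhesion proteins encoded by the Pcdha, Pcdhb and Pcdhg arrays, which lie one after the other on mouse chromosome 18. The genes described here are the protein-coding genes of the mm9 annotation on that chromosome whose symbol starts with Pcdha, Pcdhb or Pcdhg, which gave 24 of 22380 genes. They comprise 2 Pcdha genes, 21 Pcdhb genes and 1 Pcdhg gene, because the annotation puts nearly all Pcdha isoforms under Pcdha11 and all Pcdhg isoforms under Pcdhgc5. Their transcripts begin at 46 start sites, 11 in Pcdha, 25 in Pcdhb and 10 in Pcdhg. A loop belonged to them when one of its 2 ends, called anchors, lay within 5 kb of such a start site. This gave 52 of 216081 anchors and 474 of 1211657 loops, and all 24 genes had a loop.

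Each Pcdha and Pcdhg isoform begins with its own variable first exon, which has its own promoter and is spliced to constant exons at the end of the array. Each Pcdhb gene is a single exon that encodes a whole protein. The members named C (Pcdhac1, Pcdhac2, Pcdhgc3, Pcdhgc4 and Pcdhgc5) lie last in their array and are the most divergent in sequence. In neurons a random choice among the promoters gives single cells different sets of protocadherins, which neurites of the same cell use to recognise each other. The choice is known to depend on looping between promoters and enhancers by CTCF and cohesin. The Pcdha enhancers lie between the Pcdha and the Pcdhb array, and enhancers of the Pcdhb and Pcdhg promoters lie after the Pcdhg array.

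HiChIP with an antibody to H3K27ac, which marks active regulatory DNA, was measured in embryoid bodies (EBs) made from mouse embryonic stem cells by hanging drop and kept in 0.5 µM retinoic acid (RA) for 4 days. The bulk group was 12 libraries of unsorted EB cells. The other group, labelled cluster2, was 5 libraries of cells that the study's methods describe as EpCAM/CD38 double positive cells from 5 sorts by FACS, and bulk cells include such cells. Both groups had the same treatment. Nothing states that the bulk libraries came from separate cultures, or that each double positive library came from its own sort. The p-values therefore measure the spread between these libraries, which may be technical.

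Between 65148 and 241068 read pairs lay in the loops of a bulk library, and between 50508 and 118179 in those of a double positive library. Values are given as CPM, read pairs for every 1000000 read pairs in the loops of the same library. The groups differed in the anchors that their loops used: 15074 anchors were used by both. Read pairs joining 2 such shared anchors made up 99.99% ± 0.00522 (SD, n = 5) of a double positive library, but 11.8% ± 2.53 (SD, n = 12) of a bulk library, from 8.4% to 16.1%. A level in CPM therefore depends on whether all loops or the loops between shared anchors are counted, and both are given for the arrays, the main contact classes and the fits, where the feature had enough read pairs between shared anchors. Shared anchors were picked by the read pairs themselves, so that setting cannot show a feature without double positive read pairs. Whether an anchor that no double positive loop used had been among the anchors offered to those libraries cannot be told apart from an absence of contacts.

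The genes by which the cells were sorted were measured first. Epcam, the sorted adhesion protein, had 13 read pairs in bulk and 25 in double positive libraries (log2 fold change 1.05, SE 0.57, adjusted p = 0.107 in the edgeR fit across all genes). It was not called over shared anchors either (0.23, edgeR adjusted p = 0.790). Cd38, the other sorted marker, had 36 and 51 (log2 fold change 0.65, SE 0.44, edgeR adjusted p = 0.195), and it was called higher over shared anchors (1.74, edgeR adjusted p = 0.00969). Of 6 listed genes of the sorted cells, Gata4 and Foxa2 were called higher in both fits, and Sox17 only over shared anchors (3.97, against -0.57 and not called). Gata6 was called in neither fit (0.022, and 1.08 with edgeR adjusted p = 0.136 over shared anchors). All 5 tested neural genes, among them Pax6 and Neurod1, were called lower in both. Of the 6 listed genes of the sorted cells, 2 were thus called higher over all anchors and 4 over shared anchors, where 20.6% and 20.1% of all tested genes were. Over all tested genes, 42.8% were called lower in the fit over all anchors and 11.7% over shared anchors. In bulk samples, fewer cells of a type and fewer contacts per cell cannot be told apart.

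In CPM over all loops, the 3 arrays moved in different directions. At the Pcdhb array the bulk libraries had 135 CPM ± 46.6 (SD, n = 12), with a lowest value of 52.6, a median of 132 and a highest of 240.0. The double positive libraries had 694, 849, 451, 772 and 464 CPM there, a mean of 646 ± 181 (SD, n = 5), and every one of them lay above every bulk library. At the Pcdhg array the bulk libraries had 170.0 CPM ± 43.2, from 112 to 262 with a median of 161.

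The double positive libraries had 42.3, 58.2, 19.6, 19.8 and 29.0 CPM at the Pcdhg array (mean 33.8 ± 16.5), all below every bulk library. At the Pcdha array the bulk libraries had 37.6 CPM ± 18.5, from 11.6 to 69.3 with a median of 32.9. The double positive libraries had 16.9, 34.9, 19.6, 0 and 9.66 CPM at Pcdha (mean 16.2 ± 12.9), and the groups overlapped. Of the protocadherin read pairs in a library, 40.8% ± 7.60 had an end at Pcdhb in bulk and 95.3% ± 3.37 in double positive cells, while 52.9% ± 7.79 and 4.94% ± 1.55 had an end at Pcdhg.

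**Figure D1:**
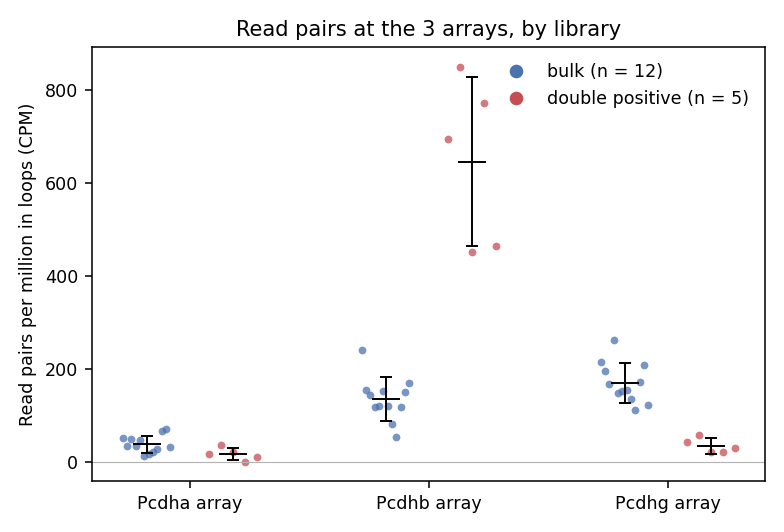
Read pairs in CPM (vertical axis) with an anchor at a Pcdha, Pcdhb or Pcdhg start site, 1 point for each of 12 bulk (blue) and 5 double positive (red) libraries, with the mean (line) and SD (bars). The double positive libraries lie between 451 and 849 CPM at Pcdhb, above all bulk libraries, and between 19.6 and 58.2 CPM at Pcdhg, below all of them.

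Counted over shared anchors, the difference at Pcdhb was not seen. Scaled to the read pairs between shared anchors, in the same unit, the bulk libraries had 673 ± 236 at Pcdhb, from 313 to 1031 with a median of 635, and the double positive libraries had 646 ± 181, so that the groups overlapped. Pcdhb anchors were common among the shared anchors: double positive loops used 17 of 22 Pcdhb anchors. They used 1 of 12 Pcdha anchors, at the Pcdha12 start site, and 1 of 18 Pcdhg anchors, at the Pcdhga3 start site. Of all 216081 anchors, 15074 were used by both groups, so the counts at Pcdha and Pcdhg were near the general share. Over shared anchors the Pcdhg array had 26.4 ± 46.5 in bulk and 33.8 ± 16.5 in double positive libraries, which rested on 4 and 15 read pairs. The Pcdha array had 40.1 ± 48.1 and 16.2 ± 12.9, from 6 and 7 read pairs.

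In the edgeR fit, 20 of the 24 genes had enough read pairs to be tested. Of these, 9 were called higher in double positive cells, where 20.6% of all 14115 tested genes were, and 3 were called lower, where 42.8% of all genes were. The 9 higher genes were all Pcdhb genes: Pcdhb9, Pcdhb10, and Pcdhb12 to Pcdhb18, which lie in the middle and the second part of the array. Only Pcdhb9 and Pcdhb10 of these shared no anchor with another gene, so the 9 are not separate measurements. Pcdhb13 shared anchors with Pcdhb12 and Pcdhb14, and Pcdhb17 with Pcdhb15, Pcdhb16 and Pcdhb18. The 3 lower genes were Pcdha11, Pcdhb6 and Pcdhgc5. Every double positive library lay above every bulk library for the same 9 genes, which 36.4% of tested genes did, and below for Pcdhgc5, which 8.93% did. The 4 genes not tested, Pcdha3, Pcdhb1, Pcdhb5 and Pcdhb8, had between 2 and 11 read pairs in bulk and between 0 and 3 in double positive libraries.

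These calls depended on the scaling and on the anchors. With library size in place of TMM, the median log2 fold change of all genes moved from -0.52 to 1.21, and 17 protocadherin genes were called higher and 1, Pcdhgc5, lower, where 55.3% and 26.2% of all genes were. Over shared anchors 18 genes were tested, and 1, Pcdhb9, was called higher and 1, Pcdhb6, lower, where 20.1% and 11.7% of 9845 genes were. The other 16 were not called there.

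Pcdhb17 had most read pairs of the Pcdhb genes over both groups together, 44 in bulk, where Pcdhb6 had more, and 96 in double positive libraries. Its level ran from 6.57 to 57.9 CPM in bulk with a median of 25.2, and was 245, 314, 176, 257 and 174 CPM in the double positive libraries, all above bulk. The log2 fold change was 1.29 (SE 0.33, edgeR adjusted p = 9.67e-04), and 0.31 (SE 0.34, adjusted p = 0.512) over shared anchors. Pcdhb proteins are membrane proteins with an ectodomain of cadherin repeats that binds the like protein on another cell, and all Pcdhb genes named here encode one.

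Pcdhb13 reached 178, 221, 118, 198 and 155 CPM in the double positive libraries, against 0 to 39.4 CPM in bulk with a median of 12.8. The groups did not overlap, and the log2 fold change was 1.83 (SE 0.42, edgeR adjusted p = 2.64e-04), or 0.92 (SE 0.42, adjusted p = 0.0776) over shared anchors. Pcdhb15 and Pcdhb16 shared 1 anchor and so have the same counts, which are 1 measurement: 161, 244, 118, 119 and 86.9 CPM in double positive libraries and 0 to 46.2 CPM in bulk with a median of 14.4. The 5 values again lay above all of bulk, with a log2 fold change of 1.43 (SE 0.41, edgeR adjusted p = 0.00278), or 0.45 (adjusted p = 0.429) over shared anchors.

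Pcdhb12 had 102, 174, 19.6, 99.0 and 77.3 CPM in double positive libraries, of which the lowest was close to the highest bulk library at 18.4 CPM. Its log2 fold change was 2.21 (SE 0.55, edgeR adjusted p = 6.98e-04), or 1.24 (adjusted p = 0.0760) over shared anchors. Pcdhb9, whose start site lies just outside its anchor, had 59.2, 81.4, 58.8, 59.4 and 29.0 CPM in double positive libraries and at most 9.21 CPM in bulk, where the median was 0. It was called higher in both fits, with a log2 fold change of 2.19 (SE 0.61, edgeR adjusted p = 0.00227) on 5 bulk and 23 double positive read pairs, and 2.0 (SE 0.76, adjusted p = 0.0314) over shared anchors. Pcdhb9 reached the minimum of 20 read pairs only through the double positive libraries. The fit over shared anchors reuses their read pairs, so it is not separate support. Pcdhb10 and Pcdhb14, with 13 each, and Pcdhb12, with 9, also had fewer than 20 read pairs in bulk.

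The remaining higher genes had smaller or less stable differences. Pcdhb14 had a log2 fold change of 1.65 (edgeR adjusted p = 0.00434) and Pcdhb18 of 1.22 (edgeR adjusted p = 0.0294), the latter losing its call without 4 of the 17 libraries (bulk 4, bulk 8, double positive 2 or double positive 4, with values from 1.05 to 1.16). Pcdhb10 had 1.26 (edgeR adjusted p = 0.0442) and lost its call without any of 11 of the 17 libraries (bulk 1, 4, 5, 9, 10, 11 or 12, or double positive 1, 2, 3 or 4, with values from 1.12 to 1.29). None of these 3 was called over shared anchors.

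Pcdhb6 went the other way. It had 56 read pairs in bulk, from 6.70 to 59.1 CPM with a median of 36.0, and 10 in double positive libraries, at 33.8, 11.6, 19.6, 39.6 and 19.3 CPM. The groups overlapped in CPM, and the log2 fold change was -2.14 (SE 0.47, edgeR adjusted p = 1.61e-04), -0.46 with library size and not called, and -3.00 (SE 0.48, adjusted p = 1.31e-08) over shared anchors. In bulk, 21 of the read pairs at its anchor joined another Pcdhb anchor, 8 a Pcdhg anchor and 13 an anchor after Pcdhg. In double positive libraries 6 joined another Pcdhb anchor, and 0 a Pcdhg anchor or an anchor after Pcdhg.

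The 8 tested Pcdhb genes that were not called were Pcdhb2, Pcdhb3, Pcdhb4, Pcdhb7, Pcdhb11, Pcdhb19, Pcdhb21 and Pcdhb22, with log2 fold changes from -0.13 (Pcdhb3) to 0.76 (Pcdhb19). Their direction was not settled. With library size all 8 were higher, Pcdhb3 at 1.55, while over shared anchors Pcdhb2, Pcdhb3, Pcdhb4, Pcdhb7, Pcdhb11 and Pcdhb19 were at -0.83 to -0.11, again not called. Neighbours share anchors in part: Pcdhb21 and Pcdhb22 drew on almost the same read pairs, 33 and 31 in bulk and 39 each in double positive libraries.

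**Figure D2:**
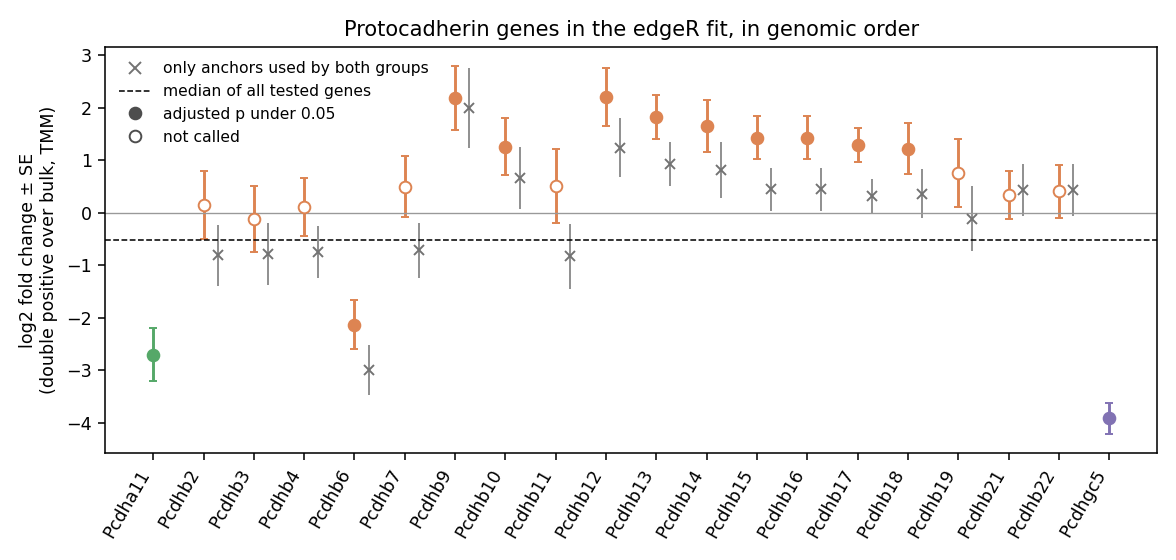
log2 fold change of double positive over bulk (vertical axis, edgeR with TMM, bars are SE) for the 20 tested protocadherin genes in genomic order, green for Pcdha, orange for Pcdhb and purple for Pcdhg, filled where the adjusted p was under 0.05. Grey crosses give the 18 genes tested over shared anchors, and the dashed line is the median of all genes in the fit over all anchors, -0.52. Pcdhb9 and Pcdhb6 keep their calls in both fits, which share read pairs.

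The Pcdhb array differed most clearly in its partners. In double positive cells it contacted the interval between Pcdhb and Pcdhg, which holds Taf7, a subunit of the general transcription factor TFIID, and Slc25a2, a mitochondrial ornithine carrier. These contacts were 195, 174, 176, 218 and 96.6 CPM in the double positive libraries, from 68 read pairs, against 0 to 19.7 CPM in bulk with a median of 6.14, from 10 read pairs. The groups did not overlap, and they also did not overlap when scaled to the read pairs between shared anchors, where bulk had 22.9 ± 34.6 with a highest value of 88.4, and double positive libraries 172 ± 45.6. That bulk value came from 5 read pairs.

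As a share of the Pcdhb read pairs between shared anchors, these contacts made up 28%, 20.5%, 39.1%, 28.2% and 20.8% in the double positive libraries. In bulk the share was 3.26% ± 5.23 (SD, n = 12), with a median of 0 and a highest value of 14.3%. These shares rested on 5 of 127 read pairs in bulk, from 4 of the 12 libraries, and 68 of 265 in double positive libraries. A bulk library had 4 to 24 Pcdhb read pairs between shared anchors, so a share of 0 there can reflect few read pairs. All 5 double positive libraries were above all bulk libraries. The interval was made a class after values were seen, and the share has no test.

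Within the Pcdhb array, contacts were 305, 419, 157, 238 and 193 CPM in double positive libraries and 31.3 ± 14 CPM in bulk, where the highest was 52.5. Over shared anchors this difference was not seen, with 257 ± 137 in bulk and 262 ± 103 in double positive libraries. From Pcdhb to the interval after Pcdhg, where enhancers are known, bulk had 42.3 ± 31.2 CPM and double positive cells 67.7, 105, 0, 198 and 86.9 CPM, and the groups overlapped. Over shared anchors the same class was 271 ± 204 in bulk and 91.5 ± 71.5 in double positive libraries, overlapping again, so that the direction of its means depended on the anchors counted.

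**Figure D3:**
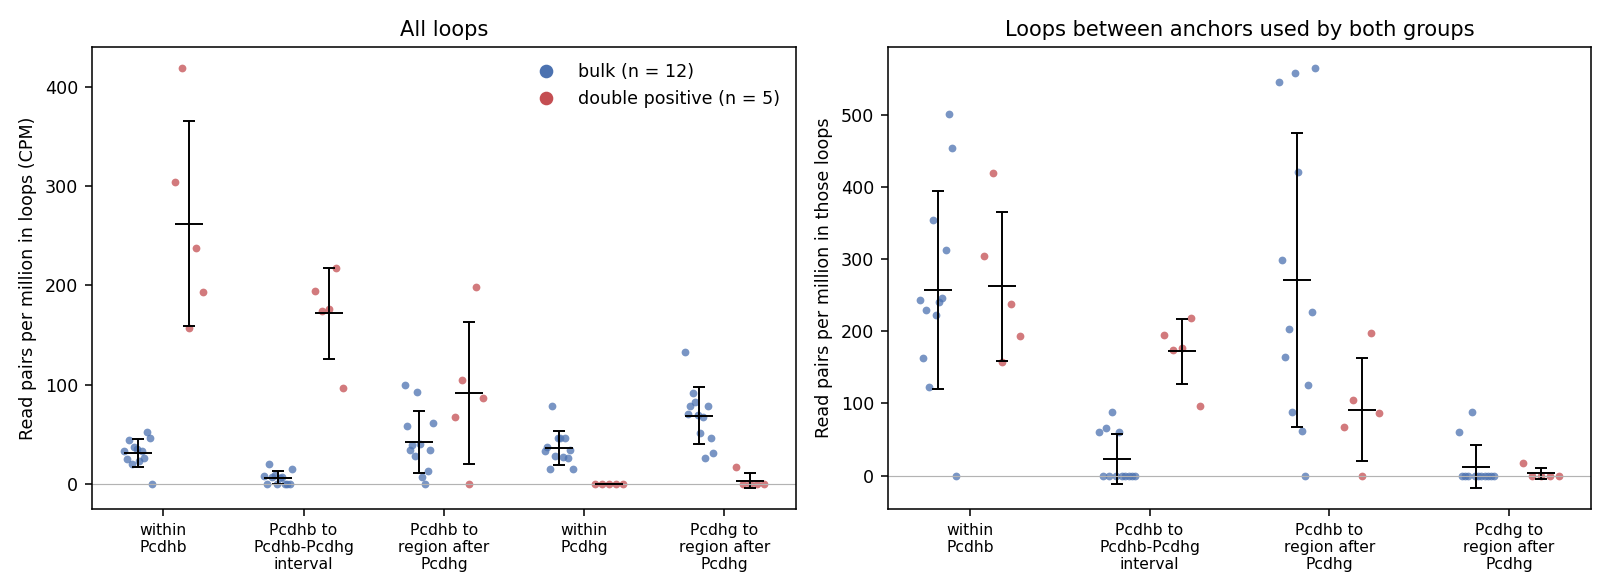
CPM (vertical axes) for contacts within and between the arrays and intervals, per library, with mean and SD, over all loops (left) and over loops between anchors used by both groups, scaled to the read pairs of those loops (right). Contacts from Pcdhb to the interval before Pcdhg separate the groups in both panels, and those within Pcdhb only in the left one. The class within Pcdhg has no loop between shared anchors.

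The Taf7 anchor, at chr18:37801824-37805040 with the start sites of Taf7 and Slc25a2, was the strongest in the locus in double positive cells. It had 296, 337, 314, 356 and 261 CPM there and 0 to 39.4 CPM in bulk with a median of 15.0, from 125 and 28 read pairs. The groups did not overlap, the log2 fold change was 2.46 (SE 0.37, edgeR adjusted p = 1.19e-07), and it was 1.61 (SE 0.36, adjusted p = 4.77e-05) over shared anchors. Of its read pairs, 55 joined it to 12 Pcdhb anchors in double positive cells, and 4 joined it to 3 Pcdhb anchors in bulk.

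By library those Pcdhb contacts of the Taf7 anchor were 169, 139.6, 98.0, 198 and 77.3 CPM in double positive cells and at most 9.85 CPM in bulk. A second anchor of the interval, at chr18:37814492-37816689 and named after its values were seen, lies at the start of 3222401L13Rik. It had 50 double positive and 11 bulk read pairs (log2 fold change 2.37, SE 0.50, edgeR adjusted p = 3.69e-05, and 2.82 over shared anchors), of which 13 and 1 joined it to Pcdhb anchors. The Pcdhb anchor with most contacts to the interval was that of Pcdhb15 to Pcdhb17, at chr18:37631945-37640975, with 15 double positive read pairs and 1 bulk read pair.

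At Pcdhg the read pairs lay mostly at the members named C in bulk. Pcdhgc5, the annotated gene that holds all Pcdhg start sites, had 279 read pairs in bulk and 15 in double positive libraries (log2 fold change -3.92, SE 0.30, edgeR adjusted p = 6.12e-13, and -2.21 with library size), and it was not tested over shared anchors. By start site, 91 bulk read pairs lay within 5 kb of Pcdhgc3, an isoform known to promote branching of dendrites, 38 of Pcdhgc4, which is known for the survival of cortical interneurons, and 108 of Pcdhgc5, in windows that overlap in part. The 38 are part of the 108, because the Pcdhgc4 anchor also lies within 5 kb of Pcdhgc5. All 15 double positive read pairs lay at the Pcdhga3 start site, where bulk had 18.

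The Pcdhgc3 anchor, at chr18:37964489-37967786, had 14.8 to 111 CPM across bulk (median 42.7) and 0 in all 5 double positive libraries. No Pcdhgc5 start site lies inside an anchor. The anchor within 5 kb of Pcdhgc5 with most read pairs, at chr18:37983943-37986119, had 18.4 to 71.9 CPM in bulk (median 28.5), and likewise 0 in double positive cells. These groups did not overlap, and 4 of the 5 tested Pcdhg anchors were called lower, where 75.5% of all 43452 tested anchors were. No fold is given, because no loop of a double positive library used these anchors and the files do not show whether they were offered.

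Contacts within Pcdhg numbered 60 read pairs in bulk, 36.1 CPM ± 17.2 and at least 14.8 in each library, and 0 in double positive cells. With a start site window of 2.5 kb the bulk mean was 13.8 CPM, and the groups overlapped. From Pcdhg to the interval after it, bulk had 113 read pairs, 68.9 CPM ± 28.6, and double positive cells had 2, both in the first library. The 2.5 kb window gave 48.8 CPM in bulk for that class, and again the groups overlapped. Scaled to the read pairs between shared anchors, that class had 12.4 ± 29.6 in bulk and 3.39 ± 7.57 in double positive libraries, from 2 read pairs each, and the groups overlapped. Over all loops it was the largest class at Pcdhg in bulk, with 40.5% of the read pairs of the array. The Pcdhg class whose mean was higher in double positive libraries ran to the interval before Pcdhg, with 8.46, 34.9, 0, 19.8 and 19.3 CPM against 6.64 ± 7.56 in bulk, and there the groups overlapped.

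The Pcdha array had few read pairs in either group. Pcdha11, the annotated gene with nearly all Pcdha start sites, had 58 read pairs in bulk, 11.6 to 69.3 CPM, and 7 in double positive libraries, which overlapped (log2 fold change -2.70, SE 0.50, edgeR adjusted p = 1.85e-05). With library size it was -1.06 and not called, and it was not tested over shared anchors. All 7 double positive read pairs lay at the Pcdha12 start site, which had 10 in bulk. Pcdhac2, known for the tiling of serotonergic axons, had 16 bulk read pairs, and Pcdhac1 had 4, with 0 in double positive libraries at both.

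In bulk, 15 of the Pcdha read pairs ran to the interval between Pcdha and Pcdhb, where enhancers of Pcdha are known, and 10 joined Pcdha anchors with each other. The anchor with most read pairs in that interval, at chr18:37336747-37339265 inside the Pcdha11 gene body, had 52 in bulk and 1 in double positive libraries (log2 fold change -4.42, SE 0.71, edgeR adjusted p = 4.69e-07, and -4.19 over shared anchors), and was named after its values were seen. Contacts between arrays were rare, with 5 bulk and 2 double positive read pairs from Pcdha to Pcdhb, 20 and 4 from Pcdhb to Pcdhg, and 1 and 0 from Pcdha to Pcdhg.

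**Figure D4:**
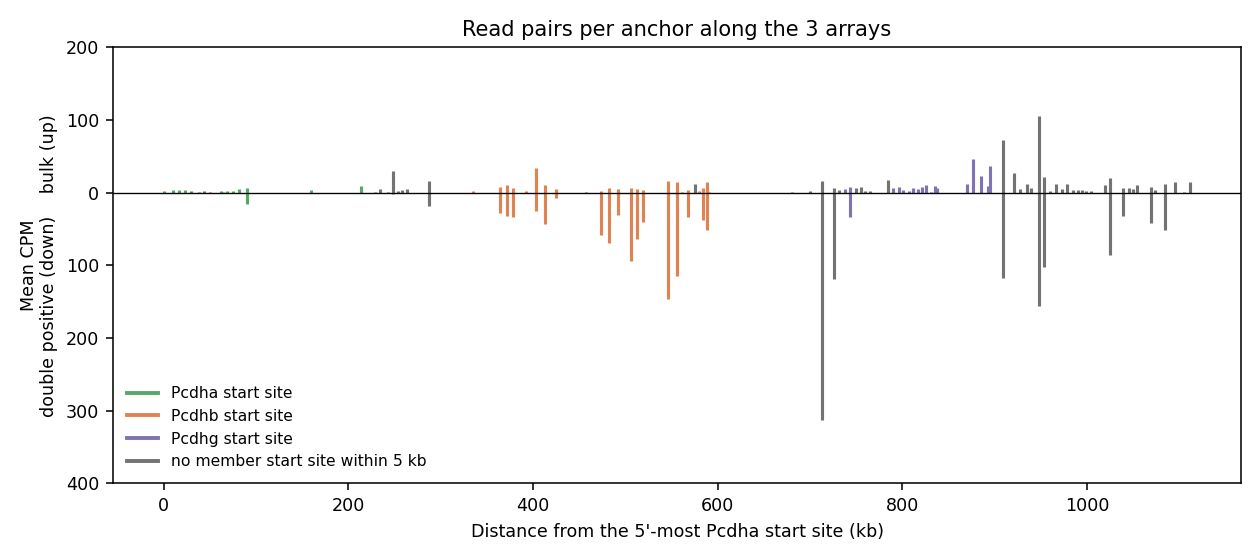
Mean CPM at each anchor of the locus (vertical axis, bulk upward and double positive downward) against the distance of the anchor's middle from the first Pcdha start site (horizontal axis, kb), coloured by array and grey where no protocadherin start site lies within 5 kb. The double positive values peak at the Taf7 anchor with a mean of 313 CPM, and Pcdhg start sites other than Pcdhga3 have none.

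After the Pcdhg array, 2 anchors led in bulk. The first, at chr18:37994453-38003968, overlaps the end of the Pcdhg transcripts and Diap1, a formin that nucleates actin, and had 118 bulk and 45 double positive read pairs (log2 fold change -1.02, SE 0.31, edgeR adjusted p = 0.00199). The second, at chr18:38035940-38040707 in the body of Diap1, had 180 and 60 (log2 fold change -1.18, SE 0.29, edgeR adjusted p = 2.49e-04). Both became higher with library size, at 0.63 and 0.47, and over shared anchors the second remained lower at -1.11 (adjusted p = 0.00154), while the first was not called.

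Their partners in the arrays were counted next. The second joined Pcdhg anchors in 35 read pairs and Pcdhb anchors in 34 in bulk, and in 1 and 10 in double positive libraries. The first joined Pcdhg anchors in 41 and Pcdhb anchors in 9 in bulk, and in 0 and 15 in double positive libraries. No test was made of these sums. The other anchors with most read pairs were at chr18:38042563-38044548 in Diap1, with 35 and 41 (log2 fold change 0.52, edgeR adjusted p = 0.284), and at chr18:38113546-38116933 by Hdac3 and Rell2, with 33 and 33 (0.32, edgeR adjusted p = 0.498). Neither was called.

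Among the 52 anchors of the protocadherins, 21 were tested, and 6, all at Pcdhb, were called higher, against 10.5% of all tested anchors, and 5 lower, against 75.5% of all. The 5 were the Pcdhb6 anchor and 4 Pcdhg anchors. Over shared anchors 15 were tested, all at Pcdhb. Those of Pcdhb9 (2.21, edgeR adjusted p = 0.0101) and of Pcdhb12 and Pcdhb13 (1.48, edgeR adjusted p = 0.0206) were called higher and that of Pcdhb6 lower, where 28.5% and 16.6% of 12510 anchors were. These 2 higher anchors had 5 and 9 bulk read pairs over all loops, so they passed the minimum of 20 only through the double positive libraries.

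In windows of 100 kb, which do not share anchors, 10 of 13 windows along the locus were tested, and 5 were called higher and 3 lower, where 11.7% and 76.4% of all 17733 windows were. A loop that joins 2 windows counts in both, so windows can share read pairs. TMM moved this fit less than that of genes. The median log2 fold change of all windows was -4.53, and -4.49 with library size, against -0.52 and 1.21 for all genes. The sizes of fold changes therefore cannot be compared between windows and genes. The highest were the windows from 37500001 (log2 fold change 2.66, SE 0.33, edgeR adjusted p = 2.20e-07) and from 37600001 (2.31, SE 0.29, edgeR adjusted p = 2.16e-07) in Pcdhb, and from 37800001 (2.12, SE 0.24, edgeR adjusted p = 6.72e-08), which holds the Taf7 anchor and the first Pcdhg start sites. The window from 37400001 over the first Pcdhb genes was at 0.62 (edgeR adjusted p = 0.0446) and lost its call without any of 15 of the 17 libraries, all except double positive 3 and 5. The window from 38100001 past the array was at 0.85 (edgeR adjusted p = 0.00290).

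Lower were the windows from 37300001 (-1.93, edgeR adjusted p = 0.00359), from 37900001 (-1.01, edgeR adjusted p = 6.88e-04), which holds the C members of Pcdhg, and from 38200001, which had 220 bulk read pairs and 0 in double positive libraries. Those from 37100001 (-0.86, adjusted p = 0.157) and from 38000001 (-0.18, adjusted p = 0.485) were not called by edgeR. Over shared anchors the window with the Taf7 anchor was the 1 window called higher (1.55, SE 0.32, edgeR adjusted p = 1.50e-05), where 27.1% of 5526 windows were. Those from 37300001 (-3.10), 37400001 (-1.54) and 38000001 (-1.04) were called lower, where 20.1% were.

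**Figure D5:**
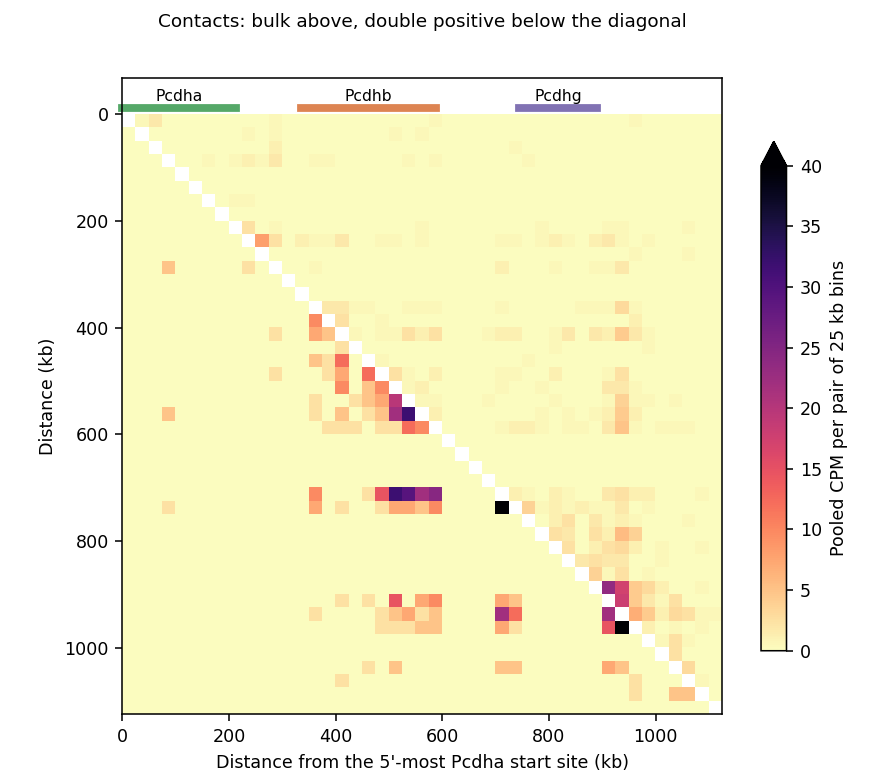
Pooled CPM between pairs of 25 kb bins (colour, capped at 40) against distance from the first Pcdha start site (both axes, kb), bulk above and double positive cells below the diagonal, with the arrays marked on top. In double positive cells a band joins the end of Pcdhb with the interval before Pcdhg, and the bulk side is darkest from the end of Pcdhg to the interval after it, at up to 23.5 CPM.

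Single loops were sparse. None of the 474 loops reached 20 read pairs, so none was tested. Of them, 316 had read pairs in bulk only and 115 in double positive cells only. The share of all loops seen in a single group was not counted, so these counts show nothing particular to the protocadherins. The loop with most read pairs joined the Pcdhgc3 anchor to the Diap1 anchor at chr18:38035940-38040707, 72186 bp away, with 15 in bulk from 10 libraries and 0 in double positive cells. Next was the loop from an anchor within 5 kb of Pcdhgc5 to the end of the Pcdhg transcripts. It had 13 in bulk from 7 libraries and 0 in double positive cells. The loop from Pcdhgc3 to an anchor within 5 kb of Pcdhgc5 had 10 and 0.

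In double positive cells the leading loop ran from the anchor of Pcdhb15 to Pcdhb17 to the Taf7 anchor, 166972 bp away. It had 12 read pairs, with at least 1 in each of the 5 libraries, and 0 in bulk. The same Pcdhb anchor joined the next one, at Pcdhb17 and Pcdhb18, in 10 double positive read pairs and 1 bulk read pair. Its loop to the Diap1 anchor, 401863 bp away, had 6 bulk and 3 double positive read pairs. The other loops among the 8 with most read pairs were Pcdhgc3 to Pcdhgc4, with 9 and 0, and Pcdhgc3 to the end of the Pcdhg transcripts, with 9 and 0.

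Genes around the arrays were measured as a list of 22. Of 20 tested, 9 were called higher, where 20.6% of all genes were, 1 lower, where 42.8% were, and 10 were not called. Taf7 and Slc25a2, which share an anchor, stayed higher over shared anchors (log2 fold change 1.35, edgeR adjusted p = 0.00130), and the other 7 higher genes (Cd14, Tmco6, Ndufa2, Ik, Hars, Hars2 and Zmat2, all before Pcdha) were not called there. Ndufa2 and Ik had the same counts, 29 in bulk and 61 in double positive libraries, so the 9 are not separate measurements. Diap1 had 103 read pairs at its start sites in bulk and 0 in double positive libraries, and none of its 7 anchors was used by double positive loops.

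The protocadherins outside the arrays had few loops. Of the 12 listed, 4 were tested and 3, Pcdh8, Pcdh15 and Pcdh18, were called lower, where 42.8% of all genes were. Pcdh8, which acts in synapse remodelling, had 76 bulk and 11 double positive read pairs (log2 fold change -2.39, edgeR adjusted p = 1.08e-04) and was also lower over shared anchors (-2.30, edgeR adjusted p = 7.88e-05). Pcdh15 and Pcdh18 had 44 and 22 read pairs in bulk and 0 and 1 in double positive libraries.

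Of 17 genes for proteins known to act on the arrays, 15 were tested, with 3 higher, 7 lower and 5 not called, shares near the 20.6% and 42.8% of all genes. Of the lower ones, Smc3 and Smchd1 were at 0.92 and 0.44 with library size. Over shared anchors 13 were tested, with 2 higher and 1 lower, where 20.1% and 11.7% of all genes were. Ctcf, which binds the protocadherin promoters and enhancers, had 221 bulk and 235 double positive read pairs (log2 fold change 0.31, edgeR adjusted p = 0.228). Pds5a, a cohesin regulator, was higher in both fits (2.20, edgeR adjusted p = 1.14e-05, and 3.8 over shared anchors). Dnmt3a, a DNA methyltransferase, was lower in both (-2.58, edgeR adjusted p = 4.85e-06, and -1.16), and Dnmt3b, the methyltransferase known to methylate Pcdh promoters in early embryos, was lower (-2.15, edgeR adjusted p = 7.15e-08) but not called over shared anchors (-0.62, adjusted p = 0.277). These values are loops at the genes' own start sites, not expression, and whether they bear on the arrays was not tested.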

How the data were processed

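The authors aligned the HiChIP reads to mm9 with HiC-Pro and called peaks and loops with hichipper. They left out replicates with few strong loops. What they deposited is raw counts of read pairs per loop and library, not normalized, and loops at 0 are absent. Overlapping anchors of the 17 libraries were joined, which dropped 700 read pairs whose ends then lay in the same anchor, and read pairs were summed per gene (start site window 5 kb), per 100 kb window and per anchor. The test in edgeR needed 20 read pairs or more over all libraries, and reads in 5 or more of them (version 4.0.16, R 4.3.3, TMM, quasi-likelihood, Benjamini-Hochberg over all features, adjusted p under 0.05). Sums over arrays and contact classes have no test. In simulated data of the 17 libraries with a log2 change of 2, 70.3% of changed genes, 61.2% of windows and 30.3% of anchors were recovered. Few features were changed there, 195 of 13746 genes, and 7.43% of the gene calls were false. In the measured data far larger shares were called, so these rates may not carry over.

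Isoform start sites were named from the spacing of RefSeq start sites, to within 1000 bp: 45 of 46 were named, and all 25 at Pcdhb matched their gene. Members, lists and the named-gene rule (all tested genes, the C members, the 8 anchors and 8 loops with most read pairs, all windows) were chosen with earlier results of these data known. Alternatives were library size, DESeq2 1.42.0 size factors, a minimum of 50 read pairs, no filter, anchors used by both groups, windows of 50 and 200 kb, a start site window of 2.5 kb, chromosome 18 read pairs as denominator of the sums, the replicate number as a block, and each library left out in turn.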

Additional observations from a re-analysis of the deposited data

Results flagged for a closer look

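Across the 5 double positive libraries, the CPM of the tested protocadherin genes, the arrays, the main contact classes and the 8 leading anchors was examined for a library that stood apart from the other 4. Over 35 such sets of 5 values, 0 had a gap to the nearest library above 0.71 of the whole range, a limit.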

How the results depend on the processing

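Over anchors used by both groups, protocadherin genes called higher and lower became 1 and 1, windows called higher 1, and anchors 2 and 1, while all genes called lower became 1151, windows 1113, anchors 2074 and loops 537. The log2 ratio of mean CPM over those loops, with the read pairs in all loops still the denominator, was 1.88 at Pcdha, 3.04 at Pcdhb, 3.45 at Pcdhg, 4.89 for Pcdhb with Pcdhg and 1.22 for Pcdhg with the interval after it. Those loops hold 99.99% of double positive but 11.8% of bulk read pairs, so this denominator raises every ratio, and a positive value is not an increase by itself. The ratios for Pcdhb with Pcdhg, under either denominator, rest on 1 bulk and 4 double positive read pairs. With the read pairs between shared anchors as denominator, chosen after seeing the data, it was -0.060 at Pcdhb, 0.35 at Pcdhg, 0.027 within Pcdhb, 2.19 for Pcdhb with Pcdhg, 2.91 for Pcdhb with the interval before Pcdhg and -1.57 for Pcdhb with the interval after Pcdhg. In the edgeR fits over shared anchors the sign turned for Pcdhb2 at -0.82, Pcdhb4 at -0.75, Pcdhb7 at -0.72, Pcdhb11 at -0.83, Pcdhb19 at -0.11, the anchor at 38113546 at -0.21, and the windows from 37400001 at -1.54 and from 38100001 at -0.23. This setting leaves out features without double positive read pairs by construction.

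With library size alone, protocadherin genes called higher and lower became 17 and 1 and anchors called higher 16. Over all features, higher and lower genes became 7800 and 3702, higher anchors 9879, and loops 4129 and 740. Pcdhb3 (1.55), the anchors at 38035940 (0.47) and 37994453 (0.63) and the window from 38000001 (0.046) took a positive sign, and that window was at 0.15 with DESeq2. With at least 50 read pairs, protocadherin anchors called higher and lower became 3 and 3, all genes called lower 3786, anchors 8787, and loops 334 and 197. Without a filter, lower protocadherin genes became 5 and anchors 25, higher protocadherin loops 5, and all lower genes 9771, anchors 151882 and loops 44. Lower windows were 7 along the locus and 23768 in all at 50 kb, and 1 and 7137 at 200 kb. With a start site window of 2.5 kb, the groups overlapped for contacts within Pcdhg and from Pcdhg to the interval after it. The Pcdhg array then had 113 CPM in bulk and 33.8 in double positive libraries, still without overlap. The cause was not tested, other than that fewer or more features enter.

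Replicate numbers did not pair the libraries: the correlations of deviations ran from -0.01 to 0.01, and 2 of 5 double positive libraries matched best with their own number. With the replicate block over the 10 libraries with shared numbers, 2588 genes were called higher and 5811 lower, 1100 loops higher, and Pcdhb4 was at -0.068, against 2768 and 6008 genes in the same libraries without the block. Under the block 7 protocadherin genes were called higher, against 8 in the same libraries without it, and the calls of Pcdhb10 (1.36), Pcdhb18 (1.14) and the window from 37400001 (0.23) were lost. Without the block, Pcdhb10 (1.10) and that window (0.25) also lost theirs in these 10 libraries. Leaving out 1 library gave 7 to 9 higher protocadherin genes and 1206 to 1924 higher loops, with ranges that crossed 0 for Pcdhb2 (-0.50 to 0.36), Pcdhb3 (-0.33 to 0.12), Pcdhb4 (-0.086 to 0.35) and Pcdhb7 (-0.016 to 0.73). At this depth no protocadherin loop reached the minimum of 20 read pairs.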
